A study of Bos taurus with 18 samples.

Results

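The study's variant table lists 18950 single-nucleotide polymorphism (SNP) sites as nonsynonymous coding, which are 1.91% of its 992284 SNP sites. They were taken by the table's own effect label, and the 31439 synonymous coding sites of the same table served as the yardstick. The deposited codons bore the label out: the alternative codon encoded another amino acid at 18950 nonsynonymous sites, with a stop at 0 of them, and the same amino acid at 31439 synonymous sites.

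The reads came from polyadenylated RNA of 2 tissues, pituitary and hypothalamus, taken from 9 cows of the Angus beef breed: 3 were 6, 3 were 18 and 3 were 30 months old. Those of 6 months had just been weaned, those of 18 months were sexually mature and those of 30 months had had a first calf; none was in heat. The 18 libraries fall into 6 groups of 3, and the labels name no treatment or genetic change in any. Genotypes at synonymous sites paired them into 9 animals, each with a library of either tissue, of equal age and replicate number: 99.5% to 99.9% of genotypes were identical within a pair, and at most 66.5% between libraries of different pairs. The animals carry the age and replicate number of their libraries here.

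A nonsynonymous change alters the amino acid that a codon encodes, and a synonymous change leaves it as it was. Selection against harmful protein changes is known to keep many nonsynonymous alleles rare, so synonymous changes in the same genes are the usual comparison. The alleles were read here from RNA, so a genotype is seen only where the gene is expressed, and a heterozygous animal shows both alleles only in proportion to their transcripts. The alternative allele is the one that differs from the reference genome, and it need not be the younger or the harmful one.

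The nonsynonymous sites lay in 7882 gene models, of which 3810 held 1 site and 158 held 10 or more. The synonymous sites lay in 9987, and 5901 gene models had both kinds. The autosomes held 18593 of the nonsynonymous sites, the X chromosome 328 and unplaced scaffolds 29. Nonsynonymous sites made up 37.6% of all coding sites, from 33.0% on chromosome 24 to 42.1% on chromosomes 9 and 12. The tables give gene models by number and with no gene name, so the proteins concerned are not identified.

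Called nonsynonymous genotypes had a median depth of 16 reads and synonymous ones 22 reads, and 61.7% and 70.7% of the calls rested on at least 10 reads. Library medians at nonsynonymous sites ran from 7 reads in the 18-month pituitary replicate 3, which called 8588 of the sites, to 21 reads in the 6-month pituitary replicate 1. A genotype was accepted for an animal at 10 or more reads and where its libraries did not differ. All 9 animals then had a genotype at 7285 nonsynonymous sites (38.4%) in 3847 gene models and at 16013 synonymous sites (50.9%). These are called complete sites.

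2 animals stood apart in their reads. In the 6-month animal 1, both libraries differed in genotype at 44 of 6408 nonsynonymous sites (0.687%), and 33 of the 44 were heterozygous in the hypothalamus library. This share was not the highest: the 18-month animal 3 had 0.8% and the 18-month animal 2 had 0.644%. At synonymous sites the 6-month animal 1 had the highest share, 0.48%, against 0.283% or less in the others. In the 18-month animal 3, the shallow pituitary library left 2126 sites for the same comparison, against 4970 or more in each other animal. The comparisons below are given without these animals where that changes a call.

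Rare alternative alleles made up a slightly larger part of nonsynonymous than of synonymous sites. Of the complete nonsynonymous sites, 25% had 1 alternative copy among the 18 alleles of the 9 animals, and of the synonymous ones 23%. With 2 copies the shares were 12.9% and 12%. From 5 to 8 copies each share was lower among nonsynonymous sites, for instance 5.37% against 6.21% at 5 copies. The class with 18 of 18 copies, where all animals were homozygous for the alternative allele, held 432 nonsynonymous sites (5.93%) and 760 synonymous sites (4.75%). The mean alternative frequency was 33.1% over nonsynonymous and 34.4% over synonymous sites. Sites on a chromosome are linked, so these shares are descriptions and no test was made over sites.

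**Figure D1:**
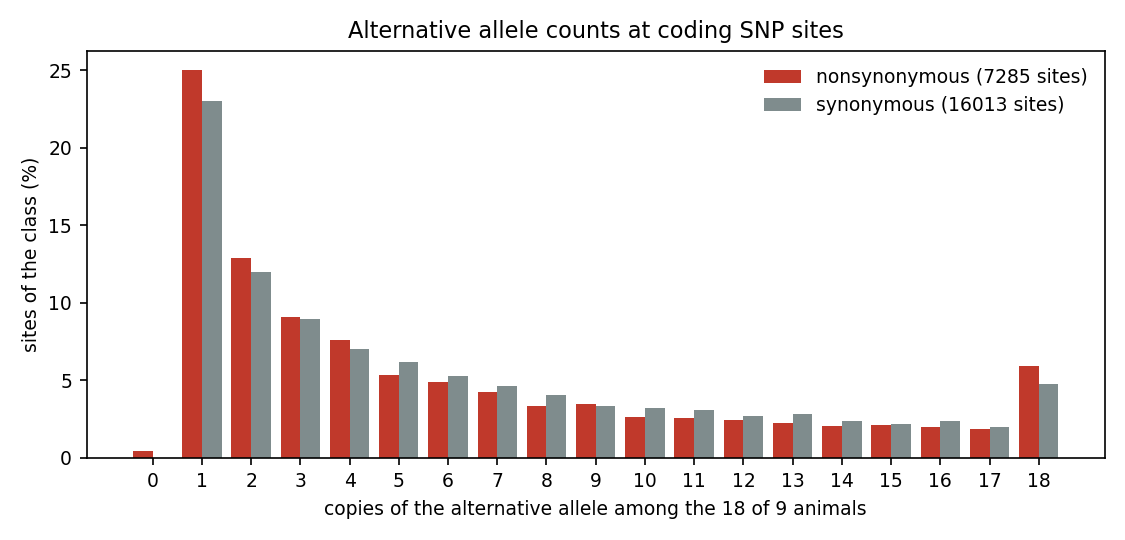
Share of complete coding SNP sites (y axis, percent of the class) by the number of alternative copies among the 18 alleles of 9 animals (x axis), nonsynonymous sites in red and synonymous in grey. The red bars are the higher ones at 1 copy (25% against 23%) and at 18 copies (5.93% against 4.75%).

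At 30 complete nonsynonymous sites (0.412%) no animal kept an alternative copy, against 2 synonymous sites (0.0125%). At these sites the alternative allele had been called only in a library read fewer than 10 times. Of the 30, 14 were transversions and 10 were T-to-C changes on the coding strand. Alternative alleles carried by a single animal made up 1843 nonsynonymous sites (25.3%) and 3722 synonymous sites (23.2%), and that animal was homozygous at 22 and 44 of them.

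Within animals, the nonsynonymous excess of rare alleles was small. The percent of an animal's non-reference sites that no other animal carried was 5.68% ± 4.07 for nonsynonymous and 4.88% ± 4.72 for synonymous sites (SD, n = 9 animals). It was higher for nonsynonymous sites in 8 of 9 animals, by 0.803 percentage points (exact sign-flip permutation p = 0.0391, two-sided; adjusted over the 11 tests made over animals, p = 0.107). The difference thus did not hold after adjustment. Without the 6-month animal 3, any of the 18-month animals or the 30-month animal 1, its unadjusted p was between 0.0547 and 0.0938, and the difference was 0.792 to 0.954 points.

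The exception among the 9 was the 6-month animal 2. No other animal carried 15.8% of its nonsynonymous and 17.2% of its synonymous non-reference sites. The other animals ranged from 2.21% to 7.38% at nonsynonymous and from 1.70% to 5.30% at synonymous sites. The 6-month animal 2 also had 4020 non-reference nonsynonymous genotypes, against 3352 to 3487 in the other animals. Its genotypes were identical with those of another animal at 53.9% of nonsynonymous sites on average, against 57.9% to 61.2% for the others. Kinship among the cows is not given in the sources used here.

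Heterozygous genotypes made up most of an animal's non-reference genotypes. The share was 61.7% ± 2.61 at nonsynonymous and 62.5% ± 2.88 at synonymous sites (SD, n = 9), from 58.5% in the 6-month animal 3 to 67.7% in the 6-month animal 2 for nonsynonymous sites. The nonsynonymous share was lower in 8 of 9 animals, with a mean difference of -0.773 points (exact sign-flip permutation p = 0.0117, adjusted p = 0.0430). The adjusted p depends on the family of tests, which holds the transition test given below. That test is not independent of how the sites were chosen. The call also rested on which sites were compared. With only gene models that had both kinds of site the difference was 0.134 points the other way (exact permutation p = 0.621). With 20 reads as the minimum it was -0.217 points (exact permutation p = 0.5), with sites called in all 18 libraries -0.0813 points (exact permutation p = 0.836), and without the 30-month animal 2 -0.539 points (exact permutation p = 0.0625).

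**Figure D2:**
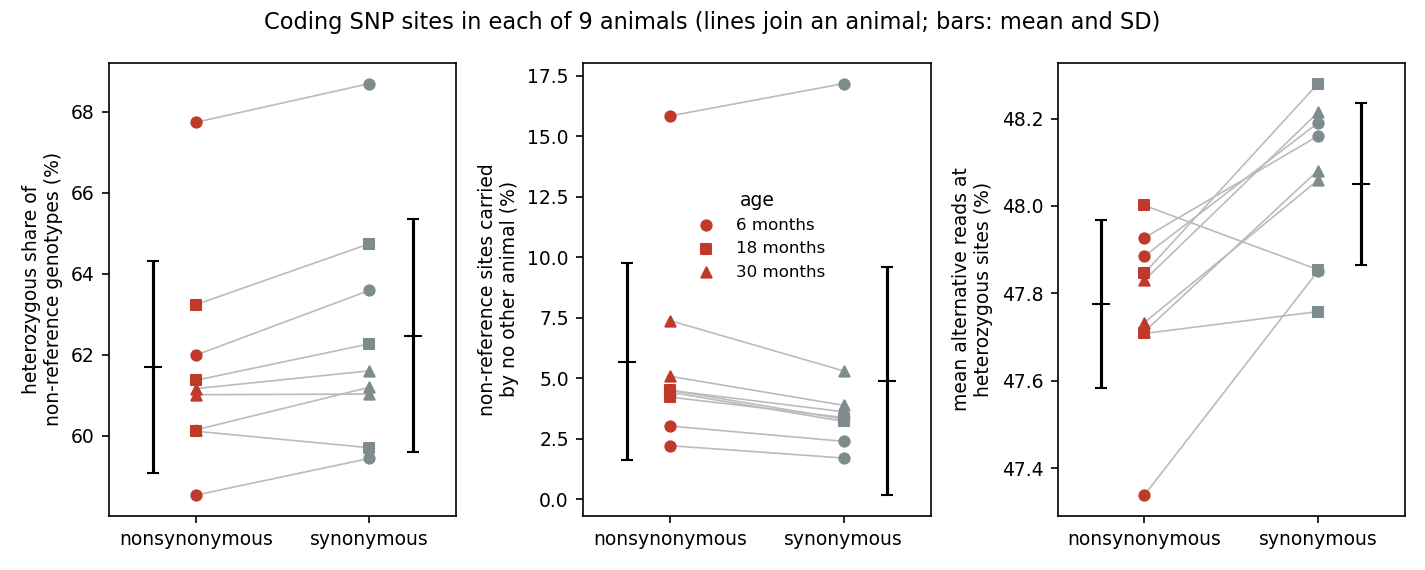
Values of each of the 9 animals at nonsynonymous (red, left) and synonymous (grey, right) sites, joined by a line, with the marker giving the age and black bars the mean and SD. Left, heterozygous share of non-reference genotypes; centre, share of non-reference sites that no other animal carried, where the 6-month animal 2 stands at 15.8% and 17.2%; right, mean percent of alternative reads at heterozygous sites.

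Observed heterozygosity at complete sites that varied among the animals was 31.6% over 6823 nonsynonymous and 32.9% over 15251 synonymous sites. Random pairing of the same 18 alleles per site would give 29.84% and 31.05%. These expected values include the small-sample factor for 18 alleles, without which they are 28.19% and 29.32%. The inbreeding coefficient, which is 0 where observed and corrected expected values are equal, was -0.0584 and -0.0604, and it was not tested. On the X chromosome the heterozygous share of non-reference genotypes was 38.8% ± 7.59 at 79 nonsynonymous sites and 52.4% ± 3.44 at 180 synonymous sites (SD, n = 9), against 62% ± 2.61 and 62.6% ± 2.89 on the autosomes. The X values rest on few sites.

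With all animals included, no difference among ages in these shares was called. Between tissues, the shares come from the same animals and sites, which limits what their tests can show. At nonsynonymous sites called in both libraries, 64.3% ± 2.87 of non-reference genotypes were heterozygous in the pituitary and 64.4% ± 2.91 in the hypothalamus (exact sign-flip permutation p = 0.488). The share of transitions was 69.1% ± 0.565 in the pituitary and 69.1% ± 0.605 in the hypothalamus (exact permutation p = 0.355). Of the nonsynonymous genotypes compared, 0.128% (18-month animal 1) to 0.8% (18-month animal 3) differed between both libraries of an animal. Nearly equal shares in both tissues were thus set in advance, and these tests cannot decide whether tissues differ. By age, heterozygous shares were 62.8% ± 4.65 at 6, 61.6% ± 1.57 at 18 and 60.8% ± 0.549 at 30 months (SD, n = 3 animals each; exact permutation p = 0.811 over all assignments of animals to ages). The single-animal share was 7.02% ± 7.65, 4.38% ± 0.148 and 5.65% ± 1.52 at these ages (exact permutation p = 0.971). Without the 6-month animal 2 the exact permutation p for the single-animal share was 0.00357, the smallest that 2, 3 and 3 animals can give. The animal left out had the highest share. An animal's share depends on which other animals are compared, and each age is a different set of cows. This p thus cannot tell age from differences among the cows. In an exact permutation test, 3 animals of one age against 3 of another cannot go below p = 0.1. Alternative alleles that all 3 animals of an age carried and no other animal did were few. For 6, 18 and 30 months they were found at 7 (0.0961%), 3 (0.0412%) and 13 (0.178%) complete nonsynonymous sites. Among complete synonymous sites they were found at 13 (0.0812%), 5 (0.0312%) and 30 (0.187%).

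Nonsynonymous sites held fewer transitions, the changes between A and G or between C and T. They made up 68.4% of nonsynonymous and 84.3% of synonymous sites, a ratio of transitions to transversions of 2.16 and 5.39. Within animals, 69.4% ± 0.290 of non-reference nonsynonymous sites and 85.4% ± 0.190 of synonymous ones were transitions (SD, n = 9), lower for nonsynonymous in 9 of 9 animals (exact sign-flip permutation p = 0.00391, the smallest the test can give; adjusted p = 0.0430). The classes are themselves defined by the codon, so the difference is not independent of how the sites were chosen, and the size of that part was not tested. Of the sites, 96.0% of the synonymous ones were at the third codon position, and 47.6% of nonsynonymous sites were at the first, 45.4% at the second and 7.08% at the third. At the third position 8.20% of nonsynonymous changes were transitions, against 71.5% at the first and 74.5% at the second.

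On the coding strand, G-to-A was the most common nonsynonymous change, with 4718 sites (24.9%; 20% of synonymous sites), followed by A-to-G with 3521 (18.6%; 14.1%), C-to-T with 2827 (14.9%; 29.3%) and T-to-C with 1892 (9.98%; 21.0%). C-to-T and G-to-A alleles were the rarer ones: 29.7% of 1160 and 29.4% of 1958 complete nonsynonymous sites were carried by a single animal, against 17.7% of 621 for T-to-C and 21.8% of 1348 for A-to-G. At complete synonymous sites the shares in the same order were 26.7%, 26.3%, 17.9% and 19.1%. CpG is the dinucleotide whose methylated C is known to mutate readily to T. Changes at a CpG that lay within the codon made up 13.2% of nonsynonymous sites and 10.7% of synonymous ones. A CpG that spans neighbouring codons was not counted. Since 96.0% of synonymous sites lay at the third codon position, these shares do not compare the classes in CpG changes.

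Protein changes were spread over 150 exchanges, and none made up more than 3.99% of sites. Alanine to threonine was the most frequent (757 sites, 3.99%), then valine to isoleucine (619, both aliphatic residues), alanine to valine (549), arginine to glutamine (526), isoleucine to valine (507) and threonine to alanine (502). Counting both directions, alanine and threonine made up 6.64% of sites and isoleucine and valine 5.94%. The alternative alleles of opposite exchanges differed in frequency: alanine to threonine averaged 26% over 337 complete sites and threonine to alanine 46.1% over 212. Valine to isoleucine averaged 27.5% and isoleucine to valine 38.4%; arginine to glutamine averaged 24.6% and glutamine to arginine 42.3%.

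The alternative alleles encoded some residues more often than the reference alleles at the same sites did. Tryptophan was encoded by 268 alternative and 167 reference alleles, a ratio of 1.60, cysteine by 510 and 336 (1.52), methionine by 829 and 602 (1.38) and histidine by 836 and 623 (1.34). Proline was encoded by 883 alternative and 1216 reference alleles (0.726), alanine by 1363 and 1874 (0.727) and arginine by 1644 and 2222 (0.740). Arginine was the most frequent residue of the reference alleles, at 11.7% of nonsynonymous sites, while arginine codons held 5.04% of synonymous sites. Most arginine codons begin with a CpG.

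**Figure D3:**
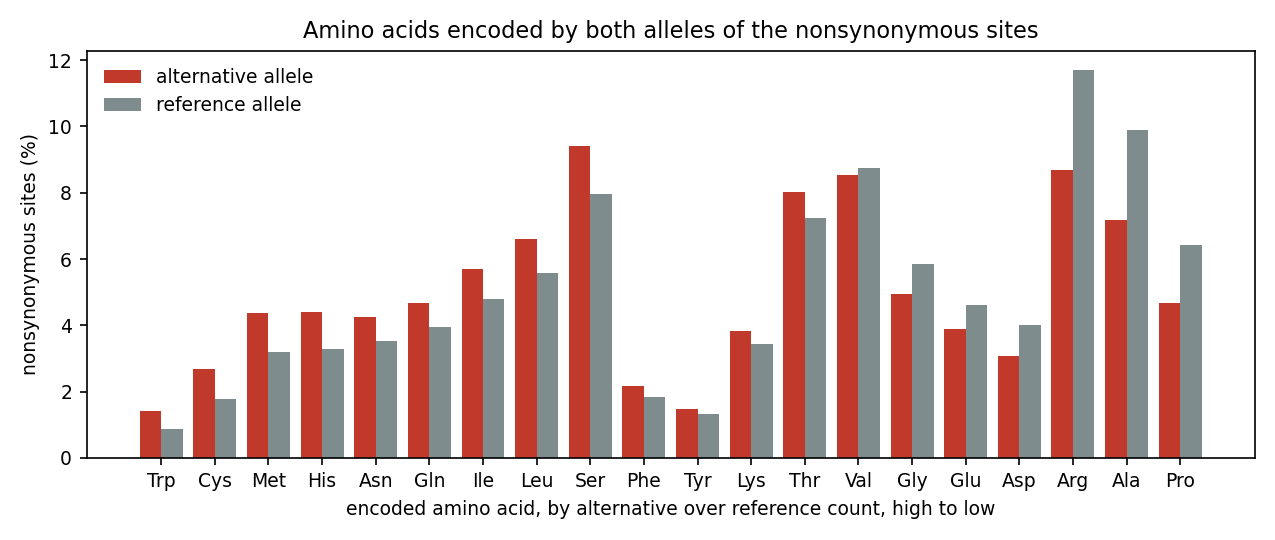
Percent of the 18950 nonsynonymous sites (y axis) whose alternative allele (red, left) or reference allele (grey, right) encodes each amino acid (x axis, by the ratio of both counts). Tryptophan has the highest ratio (268 alternative and 167 reference alleles) and proline the lowest (883 and 1216).

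BLOSUM62 scores how often an exchange is found between related proteins, and a negative score marks an exchange that is seldom found. Of the nonsynonymous sites 37.7% had a negative score, 24.5% a score of 0 and 37.8% a positive one. Single-animal alleles made up 24.4%, 25.4% and 26% of the complete sites of these classes, and sites with 18 of 18 alternative copies 6.90%, 5.33% and 5.45%. Within animals, 5.50% ± 3.44 of the sites of negative score and 5.78% ± 4.41 of the other nonsynonymous sites were carried by no other animal (SD, n = 9), a difference of -0.286 points, higher in 4 of 9 animals (exact sign-flip permutation p = 0.570, adjusted p = 0.896). Without the 18-month animal 3 the difference was 0.243 points and without the 30-month animal 1 it was 0.0133 points. With no depth minimum it was 0.476 points (exact permutation p = 0.133).

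In more highly expressed gene models, a smaller part of the coding sites was nonsynonymous. Levels are FPKM, which divides a gene model's fragments by its length and the library's size, as the median over the 18 libraries. Only gene models with a complete coding site were ranked, so the lowest level is the lowest among these. From the lowest to the highest of 5 levels, each with 1380 gene models, nonsynonymous sites made up 38.5%, 34.2%, 31.3%, 28.5% and 25.2% of complete coding sites, with median levels of 3.56, 6.20, 9.68, 15.9 and 38.4 FPKM. Over all coding sites of these gene models, complete or not, the shares were 40.3%, 36.0%, 32.6%, 29.6% and 27.1%. Median depth at nonsynonymous and synonymous sites was 20.5 and 20 reads at the lowest level and 108 and 121 reads at the highest, and its part in these shares was not tested. In bulk tissue, a gene expressed in fewer cells and a gene with less RNA per cell cannot be told apart. The single-animal share of nonsynonymous sites showed no such order, at 23.2%, 26.1%, 26.6%, 24.3% and 26.2%, and exceeded that of synonymous sites at each level.

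**Figure D4:**
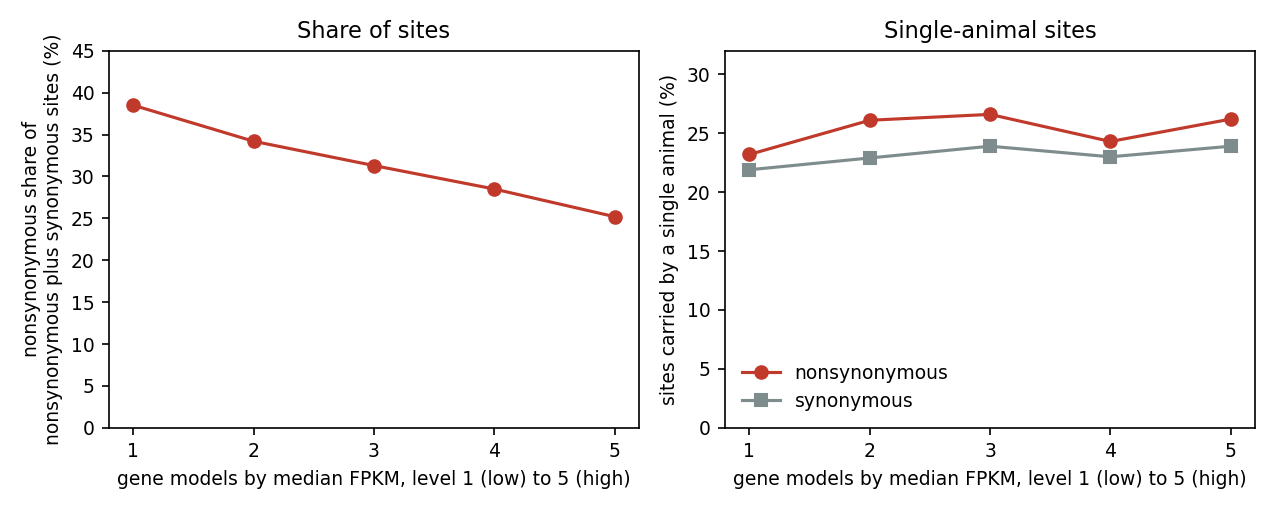
Left, nonsynonymous share of complete coding sites at 5 levels of gene models that hold such sites, ordered by median FPKM. The share is 38.5% at the lowest and 25.2% at the highest level. Right, share of complete sites carried by a single animal at the same levels, nonsynonymous in red circles and synonymous in grey squares.

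The gene models with the most nonsynonymous sites had median levels of 0.227 to 6.12 FPKM. gene9900 on chromosome 7 had 43 nonsynonymous and 39 synonymous sites between positions 92510834 and 92719881, in a gene model of 24468 bases, with 0.983 to 4.59 FPKM over the libraries. gene12743 on chromosome 10 had 40 and 29, gene13104 on the same chromosome 29 and 21, and gene5360 on chromosome 4 27 and 23. gene15271 on chromosome 12 stood out per length, with 39 nonsynonymous and 15 synonymous sites in 10607 bases (3.68 nonsynonymous sites per kilobase) and 0 to 0.367 FPKM. Its coding sites were 72.2% nonsynonymous, against 52.4% to 58% in the other 4. Only 1 of the nonsynonymous sites of these gene models, in gene13104, was complete, so their alleles could not be counted over the animals. Together they held 0.939% of all nonsynonymous sites.

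The deepest complete sites show how the genotypes read. At gene27347 (chromosome 24, position 42365965), a Gtt-to-Att change from valine to isoleucine, 3 animals were homozygous reference, 3 heterozygous and 3 homozygous alternative. Alternative reads were 100% in both libraries of the 6-month animal 1, the 18-month animal 3 and the 30-month animal 2. They were 0 of 228 to 244 reads in both libraries of the 18-month animal 1 and the 30-month animals 1 and 3. The heterozygous libraries held 54.7%, 51.5% and 44.3% in the pituitary and 51.2%, 52.8% and 49.7% in the hypothalamus. The 3 genotypes do not overlap in these reads.

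At gene11214 (chromosome 9, position 24129070), a Tgg-to-Cgg change from tryptophan to arginine, 2 animals were homozygous reference, 3 heterozygous and 4 homozygous alternative, and the 6 heterozygous libraries held 44.3% to 48.6% alternative reads. gene15810 (chromosome 13, position 48447685), with Cgt to Ggt from arginine to glycine, had 3, 4 and 2 animals in the same order and 43.2% to 49.2% in its 8 heterozygous libraries. gene22131 (chromosome 18, position 64223863), with gaG to gaC from glutamate to aspartate, had 2, 5 and 2 animals. Its heterozygous animals fell on both sides of equal reads: 34.5% in pituitary and 28.2% in hypothalamus for the 6-month animal 2 and 30.2% and 27.3% for the 30-month animal 1, but 65.8% and 73.2% for the 6-month animal 3, 59% and 57.6% for the 18-month animal 1 and 58.6% and 62.2% for the 18-month animal 3. Both tissues of each animal lay on the same side.

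The alternative allele was homozygous in all 9 animals at gene23893 (chromosome 20, position 8066447), a Caa-to-Aaa change from glutamine to lysine read 278 to 339 times per library. It was likewise at gene1392 (chromosome 2, position 15673800; Tct to Cct, serine to proline; 210 to 305 reads), gene5451 (chromosome 4, position 119445054; Cat to Aat, histidine to asparagine) and gene2593 (chromosome 3, position 8313077; cAg to cGg, glutamine to arginine). At gene2593 the 18-month pituitary replicate 1 had a depth of 152, but its allele reads were 2 alternative and 0 reference. The deepest single-animal alleles were an aaG-to-aaT change from lysine to asparagine in gene2108 (chromosome 2, position 119486865) and an aAt-to-aGt change from asparagine to serine in gene21223 (chromosome 18, position 46763221). In gene2108 the 6-month animal 3 had 222 alternative and 269 reference reads in the pituitary and 226 and 224 in the hypothalamus. In gene21223 the 6-month animal 2 had 150 and 150, and 203 and 142.

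All 9 animals were heterozygous at 19 nonsynonymous sites (0.261% of the complete sites) in 15 gene models and at 16 synonymous sites (0.0999%). Of the sites with 9 copies, where all animals could be heterozygous, these were 7.54% and 2.97%. A-to-G changes on the coding strand made up 9 of the 19 (47.4%) and 4 of the 16 synonymous ones, whereas 18.6% of all nonsynonymous and 14.1% of all synonymous sites were of this kind. The other 10 were 8 transversions and 2 C-to-T changes, and they included 3 sites of gene8973 and 2 of gene17856. An inosine that deamination leaves in RNA in place of an adenosine is read as G, so an edited adenosine and an A-to-G polymorphism look alike in these tables; which of them a site holds was not tested.

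The median share of alternative reads at the 19 sites ran from 20.3% to 69.2%. The 4 with the most reads in their least-read library, taking 1 per gene model, are given here. gene16232 is added as one of the complete called sites with the largest log2 odds in either direction. In gene7773 (chromosome 6, position 74150139), an aAg-to-aGg change from lysine to arginine, alternative reads made up 69.1% ± 5.58 in the pituitary and 69.3% ± 6.65 in the hypothalamus (SD, n = 9 each), from 59.5% to 80.0% over the 18 libraries. In gene16232 (chromosome 13, position 67116409), with the same codon and residue change, they made up 24% ± 2.65 and 22.8% ± 3.75. In gene19942 (chromosome 17, position 42768292), with Aga to Gga from arginine to glycine, they made up 57.1% ± 4.77 and 59.2% ± 6.37, at a median of 249.5 reads. gene9010 (chromosome 7, position 22151759), with cTg to cGg from leucine to arginine, lay close to equal, at 47.4% ± 2.70 and 48.4% ± 4.85. gene15430 (chromosome 13, position 11244954), with Cac to Aac from histidine to asparagine, varied more, at 60.4% ± 13.8 and 60.2% ± 8.67.

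Reads at heterozygous nonsynonymous sites leaned slightly to the reference allele. At 20 or more reads, alternative reads averaged 47.8% ± 0.192 per animal at nonsynonymous and 48.0% ± 0.186 at synonymous sites (SD, n = 9; 779 to 2963 nonsynonymous sites per library). The nonsynonymous mean was lower in 8 of 9 animals, with a mean difference of -0.274 points (exact sign-flip permutation p = 0.0117, adjusted p = 0.0430). Here too the adjusted p depends on the family of tests that holds the transition test. Without A-to-G and T-to-C changes the difference was 0.0395 points the other way (exact permutation p = 0.62). It was -0.150 points with gene models that had both kinds of site (exact permutation p = 0.164) and -0.201 points at 50 or more reads (exact permutation p = 0.0508). Within an animal, the nonsynonymous mean was 47.8% ± 0.182 in the pituitary and 47.9% ± 0.260 in the hypothalamus (exact permutation p = 0.672). By age it was 47.7% ± 0.328, 47.9% ± 0.146 and 47.8% ± 0.0625 at 6, 18 and 30 months (SD, n = 3 each; exact permutation p = 0.832). Without the 6-month animal 1, whose mean was the lowest at 47.3%, the nonsynonymous minus synonymous difference was -0.244 points (exact permutation p = 0.0234).

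By type of change on the coding strand, A-to-G sites had the lowest mean among nonsynonymous sites. Alternative reads averaged 46.7% ± 0.432 at nonsynonymous and 47.8% ± 0.212 at synonymous A-to-G sites, lower for nonsynonymous in 9 of 9 animals, a difference of -1.11 points. At T-to-C sites they averaged 48.1% ± 0.468 and 48.5% ± 0.198, at G-to-A sites 48.0% ± 0.332 and 47.9% ± 0.410, and at C-to-T sites 48.1% ± 0.408 and 47.8% ± 0.233 (SD, n = 9 each). At transversions they averaged 47.6% ± 0.373 and 48.0% ± 0.315, a difference of -0.342 points, higher for nonsynonymous in 2 of 9 animals. Among synonymous sites, the C-to-T mean of 47.83% and the A-to-G mean of 47.84% were the lowest. Heterozygous A-to-G sites with under 30% alternative reads made up 7.54% ± 1.04 of the nonsynonymous and 3.83% ± 0.777 of the synonymous ones, and in the other types 4.14% to 5.79% and 3.18% to 3.95%. This split was made after the values were seen, and no test was run on it.

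Unequal allele reads were then tested site by site. The log2 odds of alternative to reference reads were averaged over both libraries of an animal after each library was centred on its median, and were tested against 0 with limma over the 3306 SNP sites of any kind with at least 6 animals heterozygous in both libraries. Of the 263 nonsynonymous sites tested, 38 passed (14.4%; adjusted p under 0.05 over all 3306), in 36 gene models, against a background of 17.8% over all SNP sites and 11.6% of 691 synonymous sites. More alternative reads were called at 20 nonsynonymous sites (7.60%, background 7.56%) and fewer at 18 (6.84%, background 10.2%). The share of nonsynonymous sites called was thus near or below the background, and the difference was not tested. These shares are relative to the library medians. Without the centring, the median log2 odds were -0.116 over nonsynonymous, -0.110 over synonymous and -0.120 over all sites tested, and 52 nonsynonymous sites were called (19.8%, background 23.5%), 9 with more alternative reads (3.42%, background 3.99%) and 43 with fewer (16.3%, background 19.5%). The split between more and fewer thus depends on the centring. By type, with centring, 15 of 58 nonsynonymous A-to-G sites were called (25.9%), 5 with more and 10 with fewer alternative reads, and 15 of 114 synonymous ones (13.2%), 6 with more and 9 with fewer. Of the transversions 17 of 86 nonsynonymous (19.8%) and 17 of 98 synonymous sites (17.3%) were called, and in the other types 1.96% to 9.52% and 8.82% to 11.1%. Of the nonsynonymous sites heterozygous in all 9 animals, 6 of 7 A-to-G changes tested and 4 of 8 others were called. Of the synonymous A-to-G sites heterozygous in all 9, 1 of 2 tested was called. The share called over all SNP sites heterozygous in all 9 animals was not counted. Leaving out 1 animal at a time left 106 to 197 nonsynonymous sites tested and 18 to 30 called; the 30 were called without the 18-month animal 3, and without each other animal 18 to 25 were. With 50 or more reads 18 of 97 were called, and with 4 animals needed 110 of 1354.

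Over all called nonsynonymous sites, complete or not, log2 odds with more alternative reads reached 2.47. Among complete sites, the largest called deviations that went one way in all animals tested were these. gene2636 (chromosome 3, position 9479773), an Att-to-Gtt change from isoleucine to valine, held 13.6% ± 6.28 alternative reads in the pituitary and 17.7% ± 5.48 in the hypothalamus of its 8 heterozygous animals (8.44% to 27.1%; log2 odds -2.36, SE 0.151, limma adjusted p = 1.29e-07). The remaining animal, the 18-month animal 3, was called homozygous reference in the hypothalamus, where 15 of 196 reads held the alternative allele, and had no call in the pituitary. gene16232 had log2 odds of -1.58 (SE 0.0685, limma adjusted p = 1.88e-09) and gene7773 of 1.31 (SE 0.0962, limma adjusted p = 2.21e-07), each one way in 9 of 9 animals. gene15423 (chromosome 13, position 10992654; Tcc to Gcc, serine to alanine) had 7.5% to 59.1% alternative reads and log2 odds of -1.77 over the 6 animals with enough reads (SE 0.209, limma adjusted p = 0.000117). All 9 animals were heterozygous there, and the 30-month animal 2, which was not among the 6, lay on the other side, with 13 alternative and 9 reference reads in the pituitary and 10 and 8 in the hypothalamus.

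Relative to the library medians, alternative reads were higher in 7 of 7 animals at gene11210 (chromosome 9, position 23915444; cGc to cTc, arginine to leucine; 47.5% to 76.0%; log2 odds 0.68, SE 0.141, limma adjusted p = 0.00555). Without the centring they were higher in 6 of 7, with log2 odds of 0.54 (limma adjusted p = 0.017), and the 30-month animal 3 had 84 alternative and 93 reference reads in the pituitary and 102 and 93 in the hypothalamus. At gene18274 (chromosome 15, position 66290876; tAc to tTc, tyrosine to phenylalanine) they were higher in 6 of 6 animals, with and without the centring, with 47.4% to 65.5% and log2 odds of 0.62 (SE 0.111, limma adjusted p = 0.00247). The limma adjusted p of these 6 sites stayed at or below 0.017 under every alternative and left-out animal in which the site was tested. They were chosen as the largest called deviations in the same data, so this was partly set by the choice. gene18274 and gene15423 were tested in 9 such runs each, and the others in 16 each.

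**Figure D5:**
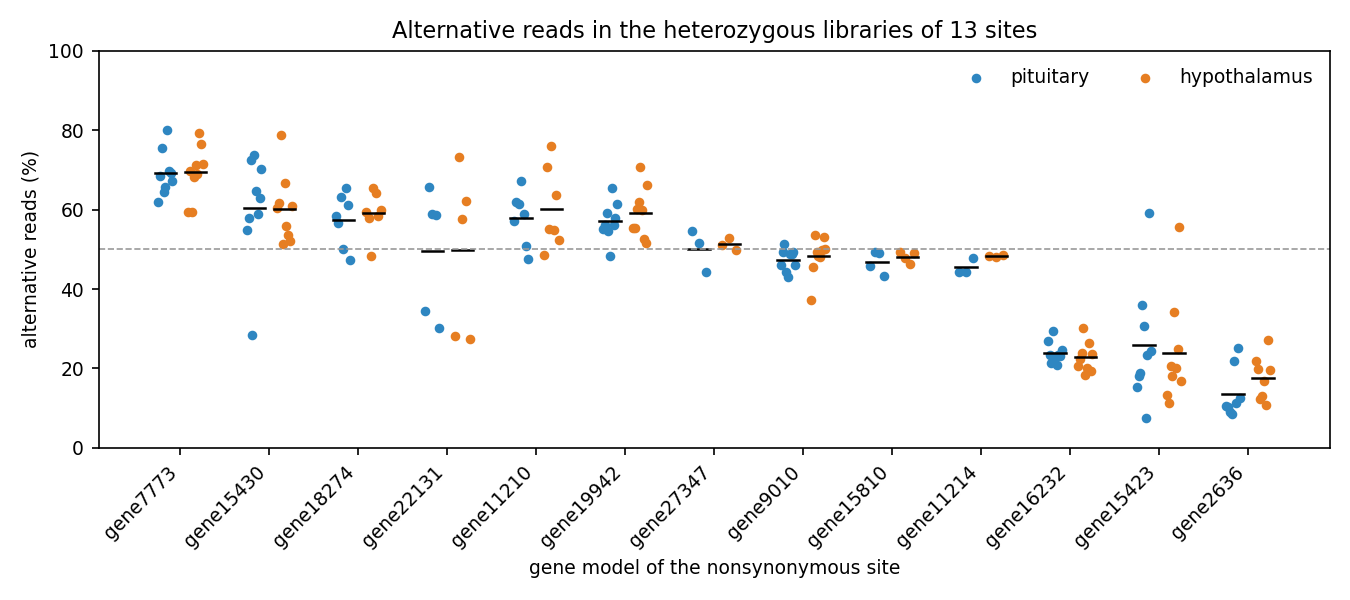
Percent of alternative reads (y axis) in each heterozygous library at the named nonsynonymous sites (x axis, by gene model), pituitary in blue on the left and hypothalamus in orange on the right; black bars are means and the dashed line is 50%. gene7773 lies at 59.5% to 80.0%, gene16232 at 18.3% to 30.2% and gene2636 at 8.44% to 27.1%, and gene22131 has animals on both sides of the line.

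No nonsynonymous site was called different in allele reads between pituitary and hypothalamus (limma, 0 of 263, smallest adjusted p = 0.982). Over all sites 0 of 3306 were called, a background of 0%. An animal called homozygous in 1 of its libraries was left out at that site. With animals heterozygous in either library taken in, 0 of 282 nonsynonymous sites were called. Sites with fewer than 6 such animals were not tested. At an unadjusted p under 0.05 there were 6 nonsynonymous sites of 263 and 146 sites of 3306. The 3 complete sites with the smallest p did not pass. At gene4084 (chromosome 3, position 107320635; Cgg to Tgg, arginine to tryptophan), alternative reads were 50.8% ± 4.25 in the pituitary and 38.1% ± 6.98 in the hypothalamus (SD, n = 6), with higher odds in the pituitary of 6 of 6 animals. At gene28203 (chromosome 25, position 33672294; cCc to cTc, proline to leucine) they were 50.6% ± 7.08 and 39.7% ± 4.06, also with higher odds in the pituitary of 6 of 6. gene2636 was the third, with higher odds in the hypothalamus in 6 of 8.

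Genotypes differed more often between the libraries of an animal at nonsynonymous sites. With 20 or more reads in both, 0.427% ± 0.233 of nonsynonymous and 0.217% ± 0.109 of synonymous genotypes differed (SD, n = 9), higher at nonsynonymous sites in 8 of 9 animals; this was not put to a test. In all 197 nonsynonymous differences 1 of the libraries was heterozygous. By type, 0.655% of nonsynonymous A-to-G genotypes differed (60 of 9156) and 0.205% of synonymous ones, against 0.192% to 0.431% and 0.186% to 0.287% in the other types. These 197 lay at 143 sites, of which 38 differed in more than 1 animal.

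The sites that differed in the most animals, 4 each, were read as low or high mixtures. In gene8793 (chromosome 7, position 16989705; Agc to Ggc, serine to glycine), the pituitary was called homozygous reference and the hypothalamus heterozygous in all 4. In these animals the pituitary held 9.06%, 8.65%, 0% and 0% alternative reads and the hypothalamus 16.3%, 11.5%, 21.1% and 10.8%. At another site of gene7773 (position 74150191; Agg to Ggg, arginine to glycine), the 10 heterozygous libraries held 7.84% to 22.2%. In gene5787 (chromosome 5, position 30713380; Gag to Cag, glutamate to glutamine), no library was homozygous reference, and the 4 heterozygous ones held 85.7% to 90.3%.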

How the data were processed

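RNA-seq libraries of 18 tissue samples were mapped and their variants called by the authors; GATK, HISAT2, StringTie and DESeq are listed, per the submitters' processing notes, without settings or versions. The deposited SNP table gives per site and library a genotype, allele reads and the depth as a read count, and labels coding effects. In 4310 of its 7249571 genotype calls the allele reads did not add up to the depth. Chromosomes carry the names of the UMD cattle assembly, but no header names a build. FPKM values per gene model are as deposited by the authors.

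The members, lists and tests were chosen with earlier results of these data known. Libraries were joined into animals by genotype at synonymous sites. Genotypes needed 10 reads and allele reads 20, with a pseudocount of 0.5. Shares were compared by two-sided exact sign-flip permutation over the 9 animals, ages by exact permutation over 1680 assignments, with Benjamini-Hochberg adjustment over 11 tests. Allele reads were tested with limma 3.58.1 (R 4.3.3), after centring each library on its median, with a depth trend, adjusted over all sites, after tests on simulated data. Exchanges were scored with BLOSUM62 (Biopython 1.88, Python 3.11.15).

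Named sites were, at most 1 per gene model, the deepest in their least-read library that were homozygous alternative in all animals (4), heterozygous in all (4), seen in all 3 genotypes (4) or carried by 1 animal (2); the 3 largest unequal sites in each direction with 1 sign in all animals; the 3 with the smallest p between tissues; the 3 whose libraries differed in the most animals; and the 5 gene models with the most sites. Named sites were taken among complete sites, except those whose libraries differed in the most animals. Depth reflects counting error only and can understate the error of a read share, since reads without molecular identifiers are not independent molecules. Insertions, deletions and gene counts were not used here.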

Additional observations from a re-analysis of the deposited data

Results flagged for a closer look

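In 9 sets of 9 values, each was checked for a highest or lowest value far from the nearest other by Dixon's ratio (gap over range) at its 95% critical value; chance alone would flag about 1 set in 20. 5 values were past it. The 6-month animal 2 gave 3 of them. It had 4020 non-reference nonsynonymous genotypes (ratio 0.798), 15.8% of its non-reference sites were carried by no other animal (ratio 0.621), and its genotypes were identical with those of another animal at 53.87% of sites on average (ratio 0.558). The 6-month animal 1 gave the other values. Alternative reads at its heterozygous nonsynonymous sites averaged 47.3% (ratio 0.558), and in its hypothalamus library 47.1% (ratio 0.596), both the lowest among the animals.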

How the results depend on the processing

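The share of transitions kept its nonsynonymous minus synonymous difference under every alternative run, from -16.68 to -15.24 points. The heterozygous difference was -0.217 points at 20 reads, 0.134 with gene models holding both kinds of site and -0.0813 with sites called in all 18 libraries. The single-animal difference was 0.882 at 20 reads and 0.598 without A-to-G and T-to-C changes. The difference in alternative reads was 0.0395 without those changes, -0.150 with gene models holding both kinds and -0.201 at 50 reads. For pituitary minus hypothalamus, the transition difference was -0.0566 with no depth minimum, and that in alternative reads was 0.0371 without A-to-G and T-to-C changes, 0.0404 with gene models holding both kinds and 0.0478 at 10 reads. Unfavourable minus other exchanges gave 0.476 with no depth minimum. Nonsynonymous sites called unequal numbered 18 of 97 tested at 50 reads (18.6%) and 110 of 1354 with 4 animals needed (8.12%). The background over all SNP sites was not counted at these settings or with an animal left out. Without centring of the libraries 52 were called (19.8%, background 23.5%), of which 9 had more and 43 fewer alternative reads. Apart from the numbers of sites tested, the cause of these changes was not tested.

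Leaving out 1 animal at a time gave -1.001 to -0.539 points for the heterozygous, 0.703 to 1.068 for the single-animal and -0.326 to -0.244 for the alternative read difference between classes, -0.0482 to 0.000295 for alternative reads between tissues, -0.546 to 0.243 for unfavourable exchanges, p of 0.00357 to 0.986 for the single-animal share among ages (exact permutation), and 18 to 30 sites called unequal. The tissue comparisons were paired by animal, as genotypes show; without this replicate block the differences were the same in size (heterozygous share -0.103 points) and no call changed. Depth limits genotypes, as does the rule that libraries of an animal must not differ. Under both, 38.4% of nonsynonymous sites had a genotype in all animals.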
